A study of Mus musculus with 16 samples.

Results

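Cpt1a, Acadm, Hadh, Acot1, Acot2, Plin2, Angptl4, Pdk4 and Ucp2 are genes of fatty acid oxidation and known targets of peroxisome proliferator-activated receptors (PPARs). These 9 genes were taken by symbol, from a choice made with earlier results of these data known, and each had a row in both deposited tables, which list 17361 genes for the mice on a normal chow diet (NCD) and 17318 genes for the mice on a high-fat diet (HFD). The 16 libraries were made from handpicked mouse islets, with 4 libraries in each of 4 groups. Flox mice (B7-H4 fl/fl, C57BL/6J background, loxP sites around exon 2 of Vtcn1, NCD) had no Cre. The cKO mice (Rip-Cre; B7-H4 fl/fl, NCD) carried the same floxed alleles and a Cre driven by the rat insulin II promoter, and no library of Rip-Cre mice without floxed alleles was analysed here. The library labels H-ins2-C and H-ins2-O are written Ctrl and OE below. Both received HFD from 6 weeks of age, an intraductal virus after 8 weeks of diet, and were sampled 5 weeks after the virus. Ctrl mice received control AAV2/8, and OE mice received AAV2/8 with B7-H4 and ZSGreen under the Ins2 promoter. The study's methods describe these HFD-fed mice as Flox, whereas the series' design text describes them as wild type. The age of the NCD-fed mice at islet isolation and the number of mice behind a library were not given in the sources used here, so p-values measure the spread between these libraries.

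PPARs are nuclear receptors that bind fatty acids and pair with retinoid X receptors on DNA, where they induce genes for fatty acid transport, storage and oxidation. Fatty acids activated to acyl-CoA enter mitochondria through the carnitine shuttle and are shortened by β-oxidation, a cycle of dehydrogenation, hydration, a second dehydrogenation and thiolysis. In β cells, long-chain acyl-CoA that is not oxidised is thought to amplify insulin secretion.

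The targeted gene and the purity of the islets were examined first. Levels are given as FPKM, fragments counted per length of transcript and per size of the sequenced library. Vtcn1, which encodes B7-H4, was between 0.0188 and 0.216 FPKM in the Flox libraries and between 0.0202 and 0.125 FPKM in the cKO libraries, too low to check the knockout label. It was between 0.0636 and 0.371 FPKM in the Ctrl libraries and between 40 and 128 FPKM in the OE libraries. The β-cell marker list, with Ins1 and Ins2, took 35.4% to 54.7% of the summed FPKM in Flox and 25.8% to 32.8% in cKO libraries, without overlap (exact permutation test, p = 0.0286), 4.38% to 55.1% in Ctrl and 47% to 51.1% in OE libraries (exact p = 0.143). The α-cell and the stellate and fibroblast lists were also lower in every cKO than in every Flox library (exact permutation test, p = 0.0286 for each). Markers of acinar cells, the enzyme-secreting cells of the exocrine pancreas (24 of 25 listed genes in each table), took 7.50% to 35.8% in Flox and 36.6% to 46.3% in cKO libraries, without overlap (exact permutation test, two-sided, p = 0.0286, the smallest that 4 against 4 allows). In the Ctrl libraries the acinar share was 5.53%, 57.7%, 75.4% and 2.16%, and in the OE libraries it was between 11.1% and 14.6% (exact p = 0.429). FPKM is a share of a library's fragments, so values of other transcripts in it depend on how much acinar RNA the library holds. In bulk islets, fewer cells of a type and less RNA per cell cannot be told apart.

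Cpt1a (chr19:3322334-3385733, mm10) encodes carnitine palmitoyltransferase of the outer mitochondrial membrane, the rate-controlling step of long-chain fatty acid entry. Acadm (chr3:153922357-153944632) encodes medium-chain acyl-CoA dehydrogenase, which catalyses the first dehydrogenation of the cycle. Hadh (chr3:131233419-131272101) encodes the dehydrogenase of the later step for short-chain hydroxyacyl-CoA, and its loss in humans causes hyperinsulinism. Acot1 (chr12:84009490-84018371) and Acot2 (chr12:83987861-83993873) are neighbouring, closely similar thioesterase genes whose products cleave acyl-CoA in the cytosol and in mitochondria, respectively. How the authors' counting divided fragments between near-identical copies was not stated, so the values of Acot1 and Acot2 are uncertain. Plin2 (chr4:86648386-86670060) encodes perilipin 2, a coat protein of lipid droplets. Angptl4 (chr17:33773750-33781830) encodes a secreted inhibitor of lipoprotein lipase. Pdk4 (chr6:5483351-5496309) encodes a kinase that switches off pyruvate dehydrogenase and so favours fatty acids over glucose as fuel. Ucp2 (chr7:100493337-100502020) encodes an uncoupling protein of the inner mitochondrial membrane.

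PPARs recognise a direct repeat of the half-site AGGTCA with 1 base between the copies. RefSeq promoters (GRCm38.p6, the mm10 assembly), from 250 bases before to 50 bases after the start, were found for 8 of the 9 genes, and Angptl4 had no entry. The half-site was present on either strand in 3 of these 8, those of Plin2, Cpt1a and Acadm, and in 16.3% of all 32851 promoters. A direct repeat with at most 2 mismatches at its 12 defined positions was present in Plin2 alone among the 8, and in 3.86% of all promoters. The Plin2 match had 2 mismatches. With at most 1 mismatch the repeat was present in 0 of the 8 and in 0.554% of all promoters. The stretches around these matches are shown for the 3 genes, on the strand of the gene and with the match in capitals. In Plin2 (chr4:86670252-86670304, minus strand) the capitals mark the direct repeat, read on the opposite strand and starting 225 bases before the start site. Its half-site is part of this repeat.
Plin2: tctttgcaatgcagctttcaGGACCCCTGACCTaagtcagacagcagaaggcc
In Cpt1a (chr19:3323187-3323232, plus strand) and Acadm (chr3:153944867-153944893, minus strand) the capitals mark the half-site on the opposite strand, 94 and 249 bases before the start site.
Cpt1a: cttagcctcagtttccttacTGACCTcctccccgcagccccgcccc
Acadm: gTGACCTtcgggctccggtgacactgg
RefSeq's start site can lie inside the gene's outer bounds given above. A match describes the letters of these windows and was not tested for binding.

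Per length, the genes fell into high, middle and low levels that were alike in the 4 groups. Hadh was the highest of the 9, with mean levels of 302 ± 46.1 FPKM in Flox, 247 ± 27.6 in cKO, 200 ± 117 in Ctrl and 375 ± 24.7 in OE (SD, n = 4 here and below). Only 77 to 141 genes of a table had a higher group mean than Hadh. Ucp2 followed, with group means between 96.6 and 170 FPKM. Cpt1a (group means 10.3 to 15.9 FPKM), Acadm (8.32 to 9.91), Plin2 (2.83 to 6.74) and Pdk4 (3.34 to 6.16) lay in the middle. Acot2 (1.09 to 1.59), Acot1 (0.442 to 0.945) and Angptl4 (0.260 to 0.880) were the lowest. By group mean, Angptl4 and Acot1 lay between the percentiles 25.6 and 36.3 of all genes of a table.

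**Figure D1:**
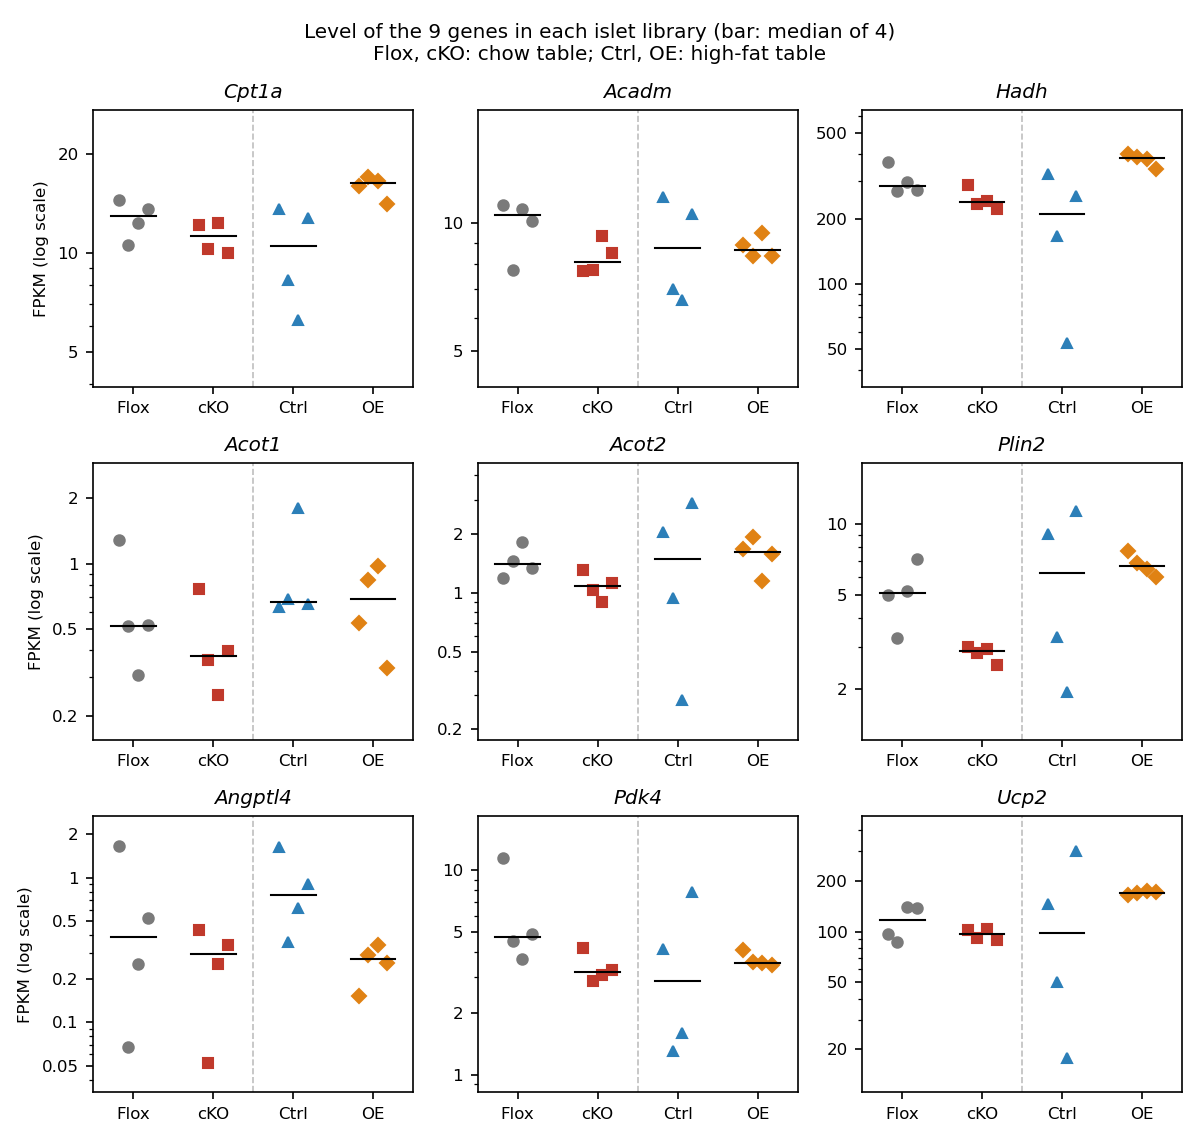
FPKM of each gene (log axis) in each of the 16 libraries, with one panel per gene, one symbol per library and a bar at the median of the 4 libraries of a group. The cKO libraries of Plin2 all lie below the Flox libraries, the OE libraries of Hadh and Cpt1a all lie above the Ctrl libraries and those of Angptl4 all lie below them, and the Ctrl libraries are widely spread for most genes.

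The cKO and Flox libraries were compared to ask how these genes stand in islets whose β cells lost B7-H4. Plin2 was the only one of the 8 genes tested that differed at an adjusted p under 0.05, and it was lower in cKO. Higher calls were made for 0 of the 8, against 1.02% of all 11804 genes tested, and lower calls for 1 of the 8, against 12.8% of all genes. All 8 estimates were below 0, as were 86.9% of the estimates of all genes, and the median over the 8 was a log2 fold change of -0.27, against -0.34 over all genes.

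Plin2 was at 4.99, 3.27, 5.20 and 7.12 FPKM in Flox16, Flox17, Flox20 and Flox21. It was at 3.02, 2.83, 2.95 and 2.52 FPKM in cKO8, cKO9, cKO12 and cKO38. Every cKO library was thus below every Flox library, and the cKO libraries were close together, whereas the Flox libraries differed by more than the gap between the groups. The log2 fold change on the log2(FPKM + 0.5) scale was -0.72 (standard error 0.21, 95% CI -1.15 to -0.29, limma adjusted p = 0.0341). Lower levels without overlap of the groups were seen for 1 of the 8 genes, Plin2, and for 15.4% of all genes, and higher levels without overlap for 0 of the 8 and 1.32% of all genes. The Plin2 call was lost when each library was scaled to the same sum of non-acinar FPKM (log2 fold change -0.38, adjusted p = 0.178). With the mean level of the acinar markers as a covariate Plin2 was at -0.27 (adjusted p = 0.832), and limma called 0 of all genes, with 803 at an unadjusted p under 0.05. The call was also lost without Flox20, Flox21, cKO9, cKO12 or cKO38 (adjusted p of 0.0992, 0.128, 0.109, 0.0718 and 0.112). After the scaling, Plin2 ranged from 3.24 to 5.58 in Flox and from 3.02 to 3.47 in cKO libraries, and the groups overlapped.

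Pdk4 was at 11.5, 4.53, 3.70 and 4.87 FPKM in the Flox libraries and at 4.15, 2.87, 3.09 and 3.26 FPKM in the cKO libraries, in the order given for Plin2. Flox16 stood far above the other Flox libraries, and cKO8 lay within the Flox range. The log2 fold change was -0.67 (95% CI -1.25 to -0.09, limma adjusted p = 0.0856), and without Flox16 it was -0.34. Hadh was at 368, 269, 297 and 273 FPKM in Flox and at 286, 235, 242 and 223 FPKM in cKO, with cKO8 above Flox17 and Flox21. Its log2 fold change was -0.28 (95% CI -0.56 to -0.01, limma adjusted p = 0.114). Plin2, Pdk4 and Hadh were the 3 of 8 genes with an unadjusted p under 0.05, against 41.5% of all genes.

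The enzymes of entry and of the first step differed less. Cpt1a was at 14.5, 10.6, 12.3 and 13.6 FPKM in Flox and at 12.2, 10.3, 12.3 and 10 FPKM in cKO. Acadm was at 11.0, 7.76, 10.8 and 10.1 FPKM in Flox and at 7.72, 7.74, 9.31 and 8.50 FPKM in cKO. Their groups overlapped, with log2 fold changes of -0.17 (95% CI -0.54 to 0.19) for Cpt1a and -0.23 (95% CI -0.60 to 0.14) for Acadm. Ucp2 was at 96.7, 87.0, 140 and 138 FPKM in Flox and at 102, 91.6, 104 and 88.6 FPKM in cKO, so that the cKO libraries resembled Flox16 and Flox17 and lay below Flox20 and Flox21. Its log2 fold change was -0.23 (95% CI -0.56 to 0.11).

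The thioesterases and Angptl4 were low in both groups. Acot2 was at 1.19, 1.46, 1.83 and 1.34 FPKM in Flox and at 1.31, 1.04, 0.897 and 1.12 FPKM in cKO (log2 fold change -0.29, 95% CI -0.68 to 0.09). Acot1 was at 1.29, 0.515, 0.308 and 0.523 FPKM in Flox and at 0.763, 0.362, 0.249 and 0.395 FPKM in cKO (log2 fold change -0.26, 95% CI -0.74 to 0.22). In both groups 1 library, Flox16 and cKO8, held the highest Acot1 value. Angptl4 was at 1.67, 0.0676, 0.252 and 0.527 FPKM in Flox and at 0.434, 0.0523, 0.255 and 0.342 FPKM in cKO. Its mean over the 8 libraries was under the minimum of 0.5 FPKM, so it was not tested, and the difference of the mean log2 values was -0.38. Its values lay within 0.05 of whole multiples of a smallest step, which differs by library, and stood at 100, 4, 16 and 32 steps in Flox and 25, 3, 15 and 19 steps in cKO. The lowest values thus rest on few steps. How many fragments a step stands for is not known, and no interval was computed. Without Flox16 the difference of the mean log2 values of Angptl4 was -0.01.

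**Figure D2:**
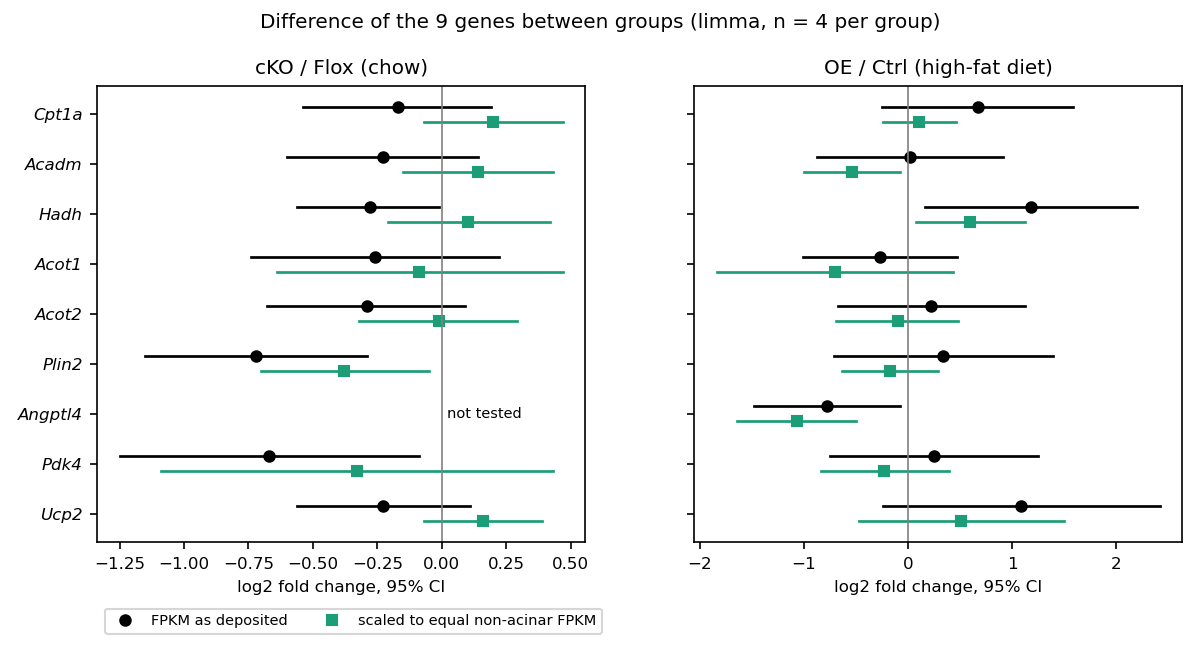
Log2 fold changes (points) with 95% confidence intervals (lines) of the 9 genes, cKO over Flox at left and OE over Ctrl at right, from FPKM as deposited and after scaling of each library to equal non-acinar FPKM. At left all 8 estimates lie below 0 as deposited and 4 of 8 lie above 0 after the scaling, and at right Hadh stays above 0 and Angptl4 below 0 under both.

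The direction of 4 of these genes depended on the scaling of the libraries. Under the non-acinar scaling the log2 fold changes of Cpt1a, Ucp2, Acadm and Hadh were 0.20, 0.16, 0.14 and 0.10, above 0, whereas those of Plin2 and Pdk4 were -0.38 and -0.33. This scaling moved the median over all genes from -0.34 to 0.00, and the calls over all genes from 120 higher and 1511 lower to 103 higher and 33 lower. The acinar share is tied to the groups in these libraries, so that its part in the values of Plin2 and Pdk4 cannot be told apart from the genotype. Without Flox20 and Flox21, the Flox libraries of lowest acinar share, a comparison added after the values were seen, the log2 fold change was -0.45 for Plin2 (limma adjusted p = 0.469) and -1.03 for Pdk4 (adjusted p = 0.342). For Pdk4 the Flox side then held only Flox16 (11.5 FPKM) and Flox17 (4.53 FPKM). Its value thus rests largely on Flox16, without which, with Flox20 and Flox21 kept, the log2 fold change of Pdk4 was -0.34. Markers of adipocytes, in which Plin2 is also abundant, were examined in the same libraries. The list of 10 took 0.00109% to 0.00597% of the summed FPKM in Flox and 0.00105% to 0.00159% in cKO (exact p = 0.114). Fabp4, which capillary endothelium also expresses, made up 55% to 77.1% of the list, with 6.33 to 22.7 FPKM in Flox and 5.58 to 7.87 FPKM in cKO. Adipoq, Plin1, Cfd, Lep, Retn and Adrb3 were at 0 in all 4 cKO libraries and reached 1.29, 0.329, 9.96, 0.129, 0.606 and 0.0415 FPKM in Flox20. Cidec was at 1.92 FPKM in Flox20, at 0 in the other Flox libraries, and at most 0.0195 FPKM in cKO. Thrsp ranged from 1.46 to 3.75 FPKM in Flox and from 0.793 to 2.22 FPKM in cKO, and Acvr1c from 0.738 to 2.63 FPKM in Flox and from 1.6 to 1.82 FPKM in cKO, where it was above 3 of the 4 Flox libraries. The part of these markers in the Plin2 values was not tested, and without Flox20 the log2 fold change of Plin2 was -0.70.

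The OE and Ctrl libraries were compared to ask how the same genes stand in islets of HFD-fed mice when β cells are given B7-H4. None of the 9 genes differed at an adjusted p under 0.05. Of the 9 estimates 7 were above 0 and 2 below, and 15.8% of the estimates of all genes were below 0. The median over the 9 was a log2 fold change of 0.25, against 0.44 over all genes. Higher calls stood at 0 of 9, against 0.033% of all 12132 genes tested (4 genes), and lower calls at 0 of 9, against 0% of all genes. At an unadjusted p under 0.05 limma gave 2 of the 9, Hadh higher and Angptl4 lower, against 6.41% of all genes. The levels of Hadh and Cpt1a were higher in every OE than in every Ctrl library (2 of 9, against 5.61% of all genes), and those of Angptl4 were lower (1 of 9, against 0.964% of all genes).

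Hadh was at 323, 166, 53.5 and 256 FPKM in Ctrl1, Ctrl2, Ctrl3 and Ctrl5. It was at 398, 386, 377 and 341 FPKM in OE1, OE2, OE3 and OE4. The OE libraries were close together and all above the Ctrl libraries, of which Ctrl3 was far the lowest. The log2 fold change was 1.18 (standard error 0.49, 95% CI 0.16 to 2.20, limma adjusted p = 0.591). Ctrl3 had the highest acinar share of the 16 libraries, and without it the log2 fold change of Hadh was 0.65. With the non-acinar scaling Hadh was between 140 and 274 in Ctrl and between 290 and 348 in OE libraries, still without overlap, and the log2 fold change was 0.60 (adjusted p = 0.232).

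Cpt1a was at 13.6, 8.28, 6.27 and 12.8 FPKM in the Ctrl libraries and at 16, 17, 16.6 and 14.1 FPKM in the OE libraries, in the same order. All OE libraries were above all Ctrl libraries, although Ctrl1 and OE4 were close. Its log2 fold change was 0.67 (95% CI -0.25 to 1.59, limma adjusted p = 0.591), and with the non-acinar scaling it was 0.11 and the groups overlapped. Ucp2 was at 146, 49.9, 17.8 and 302 FPKM in Ctrl and at 165, 169, 175 and 171 FPKM in OE. The Ctrl libraries of Ucp2 lay on both sides of the OE libraries, with a coefficient of variation of 99.0% in Ctrl and 2.43% in OE. Its log2 fold change was 1.09 (95% CI -0.24 to 2.42, limma adjusted p = 0.591), without Ctrl3 it was 0.38, and without Ctrl5 it was 1.73 (adjusted p = 0.235), with every OE library then above every Ctrl library.

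Angptl4 was at 1.64, 0.359, 0.622 and 0.901 FPKM in Ctrl and at 0.151, 0.291, 0.342 and 0.257 FPKM in OE. The highest OE library, OE3, was just under the lowest Ctrl library, Ctrl2. Counted in smallest steps these were 92, 23, 36 and 49 steps in Ctrl and 10, 19, 24 and 17 steps in OE, at relative depths between 0.841 and 1.08. OE3 thus held 1 step more than Ctrl2 at a greater depth. The log2 fold change was -0.78 (standard error 0.34, 95% CI -1.48 to -0.08, limma adjusted p = 0.591). With the non-acinar scaling the ranges were 0.575 to 1.63 in Ctrl and 0.132 to 0.306 in OE, further apart, with a log2 fold change of -1.07 (adjusted p = 0.136).

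Angptl4 is also made by adipocytes, whose marker list took 0.00227% to 0.00844% of the summed FPKM in Ctrl and 0.00151% to 0.00207% in OE (exact p = 0.0286). Of the 8 markers in this table, 5 (Adipoq, Plin1, Cidec, Retn and Adrb3) were under 0.5 FPKM in every library, and Adipoq was at 0 in 3 Ctrl and 4 OE libraries and at 0.114 FPKM in Ctrl5. Fabp4 made up 80.9% to 97.4% of the list, with 17.1 to 55.3 FPKM in Ctrl and 9.17 to 13.3 FPKM in OE. The part of Fabp4-expressing cells in the Angptl4 values was not tested.

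The other genes showed no common direction. Pdk4 was at 4.14, 1.31, 1.6 and 7.87 FPKM in Ctrl and at 4.05, 3.54, 3.53 and 3.45 FPKM in OE. Plin2 was at 9.13, 3.30, 1.94 and 11.4 FPKM in Ctrl and at 7.71, 6.84, 6.45 and 5.96 FPKM in OE. For Pdk4 and Plin2, Ctrl1 and Ctrl5 were above every OE library and Ctrl2 and Ctrl3 below every OE library. The log2 fold changes were 0.25 (95% CI -0.75 to 1.25) for Pdk4 and 0.34 (95% CI -0.71 to 1.39) for Plin2, and with the non-acinar scaling they were -0.23 and -0.17. Acot2 was at 2.05, 0.944, 0.284 and 2.89 FPKM in Ctrl and at 1.68, 1.93, 1.15 and 1.58 FPKM in OE, with the same arrangement and a log2 fold change of 0.22 (95% CI -0.67 to 1.12). Acadm was at 11.5, 7.02, 6.61 and 10.5 FPKM in Ctrl and at 8.90, 8.35, 9.48 and 8.37 FPKM in OE. Its log2 fold change was 0.02 (95% CI -0.87 to 0.91), and -0.54 (adjusted p = 0.228) with the non-acinar scaling, where every OE library was below every Ctrl library. Acot1 was at 0.630, 0.685, 1.81 and 0.651 FPKM in Ctrl and at 0.533, 0.841, 0.974 and 0.333 FPKM in OE, and here Ctrl3 was the highest rather than the lowest library. The log2 fold change of Acot1 was -0.27 (95% CI -1.01 to 0.47), and without Ctrl3 it was -0.02.

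Without Ctrl2 and Ctrl3, a comparison added after the values were seen, Angptl4 (log2 fold change -1.19, limma adjusted p = 0.0110) and Plin2 (-0.57, adjusted p = 0.0235) were lower in OE than in Ctrl1 and Ctrl5. In this comparison 301 genes were called higher and 2692 lower in all. Lower calls thus stood at 2 of 9, near the 21.9% of all genes, and higher calls at 0 of 9, against 2.44%. With the mean level of the acinar markers as a covariate and all 8 libraries, Hadh (1.02, adjusted p = 0.0471), Ucp2 (0.79, adjusted p = 0.0457) and Cpt1a (0.59, adjusted p = 0.0477) were higher and Angptl4 (-0.85, adjusted p = 0.0394) was lower in OE. The same covariate gave 1174 higher and 267 lower calls over all genes. Higher calls thus stood at 3 of 9, against 9.68% of all genes, and lower calls at 1 of 9, against 2.2%. Angptl4 had the same direction in every setting of this comparison that kept it above the minimum mean, and Hadh and Cpt1a were above 0 in every setting. Changes of the minimum level or of the fit cannot alter a log2 fold change, so that agreement under them was fixed in advance. As deposited most genes were also above 0, with 15.8% of all estimates below 0.

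Over the 16 libraries, on the log2(FPKM + 0.5) scale and with the mean of each table subtracted, the genes other than Angptl4 and Acot1 varied largely together and with the acinar share. The Pearson correlations between 2 of the 9 genes ran from -0.53 to 0.94, with a median of 0.65 over the 36 pairs. The highest were those of Cpt1a with Hadh (0.94), Acot2 with Ucp2 (0.89) and Plin2 with Ucp2 (0.87), and the lowest was that of Acot1 with Ucp2. With the acinar share, the correlation was -0.96 for Plin2, -0.92 for Ucp2, -0.86 for both Cpt1a and Acot2, -0.82 for Hadh, -0.80 for Acadm and -0.70 for Pdk4. Angptl4 (-0.18) and Acot1 (0.38) did not follow it. By rank (Spearman) the correlation with the acinar share was weaker for Hadh (-0.62) and Cpt1a (-0.66). It was -0.94 for Plin2, -0.80 for Ucp2, -0.79 for Acot2, -0.78 for Acadm and -0.73 for Pdk4. These correlations are descriptions over libraries that share a table and differ in composition, and they carry no p-value. The share of all genes that follow the acinar share was not computed, so the pattern cannot be called particular to these genes.

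**Figure D3:**
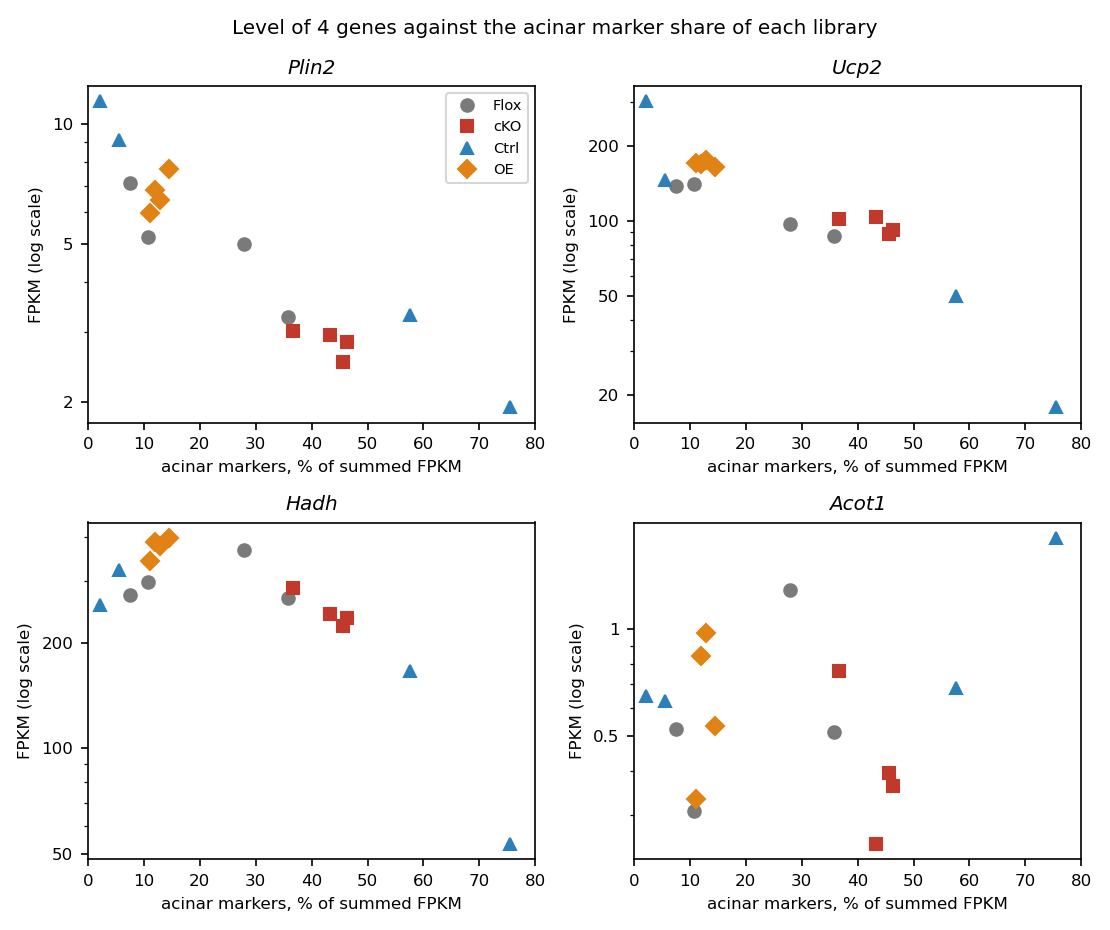
FPKM (log axis) of Plin2, Ucp2, Hadh and Acot1 against the share of acinar markers in the summed FPKM, with one symbol per library and group. Plin2 and Ucp2 fall from Ctrl5 (2.16% acinar) to Ctrl3 (75.4%), Hadh is highest in OE1 (398 FPKM) and lowest in Ctrl3, and Acot1 is highest in Ctrl3.

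The genes most alike in pattern were sought among the 11552 other genes tested in both tables (11553 for Angptl4). Plin2 was most like Rhot1 (r = 0.99), Cers2 (0.98) and Wbp4 (0.98). Ucp2 was most like Lgals3bp, Nenf and Otub1 (each 0.99), and Hadh was most like Tbl1x, Cdh8 and Twsg1 (each 0.99). Cpt1a was like Itpr1 (0.98) and Cnnm3 (0.97). Acot2 was most like Chmp6, Tmem234 (both 0.95) and Pip4k2a (0.94), and Acadm was like Thbs1 and Ube2v2 (both 0.93). Pdk4 was most like Snx18, Grb10 and Gpx7 (each 0.91). The likeness was weaker for Angptl4, with Cdv3, Mterf4 (both 0.84) and Mal2 (0.83), and for Acot1, with Fam241a (0.74) and Rhou (0.72).

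The wider pathway was followed in 11 lists with 123 genes in all. Between cKO and Flox, 11 of the 90 genes tested were lower (12.2%, against 12.8% of all genes) and 1 was higher, with a median log2 fold change of -0.30 against -0.34 over all genes. Between OE and Ctrl, 0 of the 93 genes tested were called in either direction by limma, 8 had an unadjusted p under 0.05, and the median was 0.40 against 0.44 over all genes. Of these 93, 6 were higher without overlap of the groups (Acaa1a, Fitm2, Pdk1, Pdk2, Pdpr and Gpd1) and 3 were lower (Acacb, Cd36 and Fabp4), against 5.61% and 0.964% of all genes. Lower calls in cKO were thus about as frequent in the lists as over all genes. Between OE and Ctrl limma made only 4 calls over all genes, too few for such a comparison. The lower genes without overlap stood above the share of all genes there, which was not tested.

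Genes of fatty acid uptake held the most calls between cKO and Flox. Of 11 tested, 4 were lower and 0 higher, against 12.8% and 1.02% of all genes. Without overlap of the groups 3 were lower and 1 was higher, against 15.4% and 1.32% of all genes. Cd36, a fatty acid translocase, fell from 2.03 ± 0.863 to 0.627 ± 0.0495 FPKM (limma log2 fold change -1.09, adjusted p = 0.0147). Vldlr, a receptor of triglyceride-rich lipoproteins, fell from 5.30 ± 1.74 to 2.44 ± 0.603 FPKM (log2 fold change -0.95, adjusted p = 0.0194). Lpl, the lipoprotein lipase that Angptl4 inhibits, fell from 28.3 ± 10.1 to 13.9 ± 2.31 FPKM (log2 fold change -0.95, adjusted p = 0.0202). The fourth was Ffar1, a β-cell receptor of free fatty acids (log2 fold change -0.79, adjusted p = 0.0397), named here after its value was seen. With the non-acinar scaling none of these 4 stayed under 0.05, with adjusted p of 0.0582 for Cd36, 0.0782 for Vldlr, 0.103 for Lpl and 0.2 for Ffar1. The list then held 1 call, of another gene and higher in cKO. With median-of-ratios scaling, in which each library is divided by its median ratio to the geometric mean of all, Cd36 (adjusted p = 0.04) and Vldlr (0.0468) stayed under 0.05. Marker shares moved with these genes, since the stellate and fibroblast list took 0.00686% ± 0.00166 of the summed FPKM in Flox and 0.00374% ± 0.000481 in cKO (exact permutation test, p = 0.0286) and the endothelial list 0.0231% ± 0.00631 and 0.0135% ± 0.00216 (exact permutation p = 0.0571), and their part was not tested. Between OE and Ctrl, Cd36 and Fabp4 were lower without overlap of the groups, with 1.12 ± 0.194 against 2.28 ± 0.846 FPKM and 10.6 ± 1.86 against 36.8 ± 16.5 FPKM, both at an adjusted p of 0.591.

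The small counts of the next lists stand beside 12.8% lower and 1.02% higher calls over all genes in cKO. Of the peroxisomal oxidation genes 2 of 10 were lower in cKO, Pex11a, a PPAR target for peroxisome division (log2 fold change -1.06, limma adjusted p = 0.0180), and Abcd3, a fatty acid transporter of the peroxisome (-0.66, adjusted p = 0.0280). Of the carnitine shuttle genes 1 of 13 was lower and 1 was higher. Cpt2, the inner-membrane partner of Cpt1a, fell from 19.0 ± 5.58 to 11.7 ± 0.917 FPKM (log2 fold change -0.63, adjusted p = 0.0429). Acacb, whose product makes the malonyl-CoA that inhibits the Cpt1a enzyme, rose from 0.548 ± 0.286 to 1.10 ± 0.181 FPKM (log2 fold change 0.64, adjusted p = 0.0432). In OE and Ctrl, Acacb was at 0.535 ± 0.0577 and 1.12 ± 0.585 FPKM, without overlap and at an adjusted p of 0.591. Oxct1, which activates ketone bodies for use, was the 1 of 5 ketone genes lower in cKO (log2 fold change -0.52, adjusted p = 0.0455), and Slc25a14 was the 1 of 3 further uncoupling proteins (-0.61, adjusted p = 0.049989). None of these 6 stayed under 0.05 with the non-acinar scaling. With median-of-ratios scaling the carnitine shuttle list held 1 higher and 0 lower calls. The peroxisomal, ketone and uncoupling lists then held 0 in either direction.

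Mitochondrial β-oxidation enzymes other than Acadm and Hadh held 0 calls among 14 tested in either comparison, and all 14 estimates were below 0 in cKO against Flox, as were 86.9% of those of all genes. Lower calls in cKO stood at 12.8% of all genes. Without overlap of the groups 3 of the 14 were lower in cKO and 0 higher, against 15.4% and 1.32% of all genes. The median of the list was -0.30 as deposited and 0.08 with the non-acinar scaling. The most abundant, Etfb and Hadha, were at 42.0 ± 1.74 and 31.0 ± 1.82 FPKM in cKO and at 46.1 ± 3.42 and 39.4 ± 7.66 FPKM in Flox. No call was made among 6 further thioesterases, where Acot13 was at 20.8 ± 1.52 FPKM in cKO and 32.5 ± 9.74 in Flox and Acot11 at 4.55 ± 0.805 and 6.53 ± 2.32. The same held for the lipid droplet list (10 tested in cKO against Flox and 11 in OE against Ctrl) and for the 8 genes around pyruvate dehydrogenase. Between OE and Ctrl the median of the lipid droplet list was -0.03, against 0.44 over all genes. With the non-acinar scaling it was -0.49, against -0.03 over all genes. With the acinar covariate 2 genes of the list were called higher and 1 lower, against 9.68% and 2.2% of all genes. Pnpla2, the triglyceride lipase, was at 10.1 ± 1.11 FPKM in cKO and 12.7 ± 3.14 in Flox, and Fitm2 at 11.3 ± 1.09 and 16.1 ± 4.36. Pdk2, the relative of Pdk4, was at 10.1 ± 0.582 FPKM in cKO and 7.86 ± 0.666 in Flox, without overlap but at an adjusted p of 0.131 (0.0317 with the non-acinar scaling, log2 fold change 0.71), and Mpc2 at 24.8 ± 1.03 and 29.7 ± 3.37. Of the further liver targets of PPARα only 2 of 10 were tested, and Fgf21 stood at 5.69 ± 2.00 FPKM in cKO and 4.50 ± 2.67 in Flox and Gpd1 at 10.7 ± 1.01 and 15.9 ± 4.89. Between OE and Ctrl the groups of Fitm2 (12.4 ± 0.967 against 5.76 ± 3.03 FPKM) and of Gpd1 (16.3 ± 2.06 against 9.21 ± 5.52 FPKM) did not overlap, both at an adjusted p of 0.591.

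**Figure D4:**
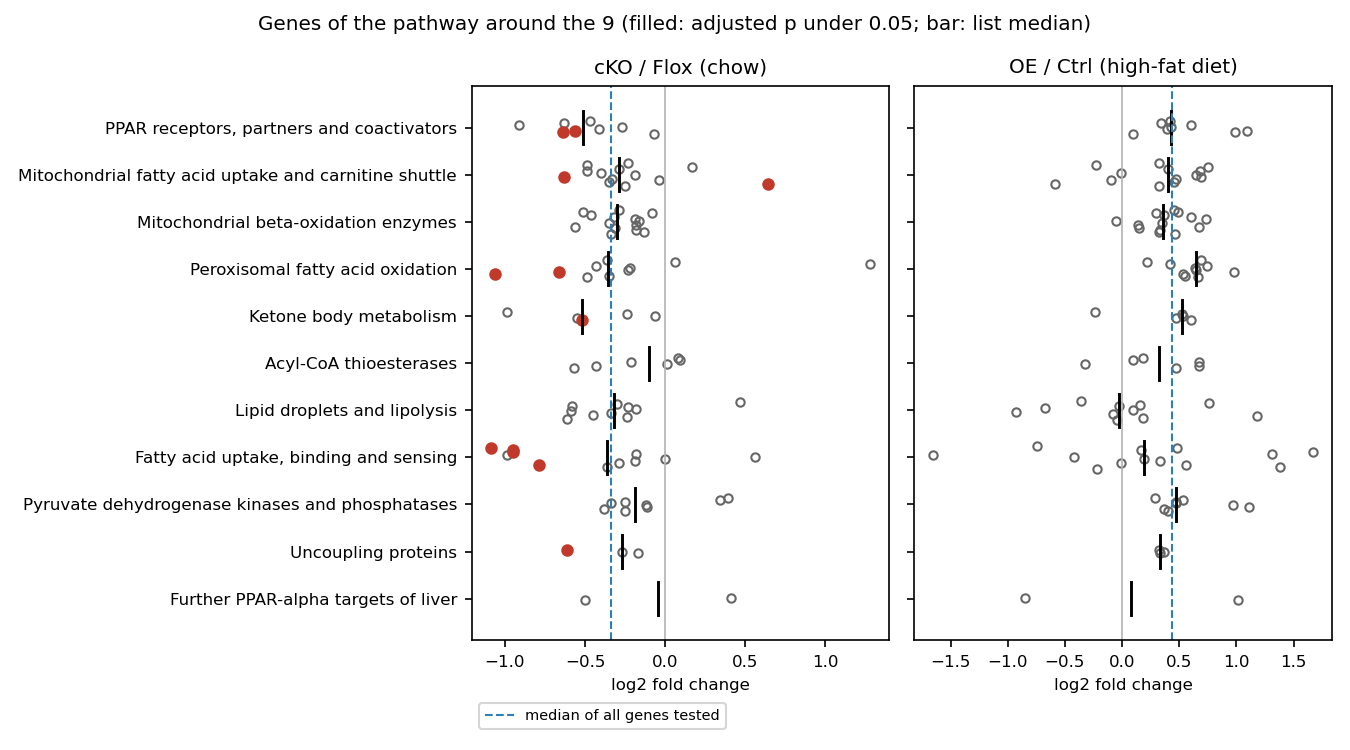
Log2 fold changes of the genes in each of 11 lists, cKO over Flox at left and OE over Ctrl at right, with filled points for an adjusted p under 0.05, a black bar at the list median and a dashed line at the median of all genes tested. Most list medians lie near the dashed line, 12 points are filled at left and 0 at right.

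Of the receptors and their partners, 2 of 8 tested were lower in cKO, against 12.8% of all genes. They were the coactivator Ncoa1 (log2 fold change -0.56, limma adjusted p = 0.0485) and the corepressor Ncor1 (-0.64, adjusted p = 0.04). Neither stayed under 0.05 with the non-acinar scaling. The receptors themselves are named here outside the rule for genes. Ppara was under the minimum level in both tables, with 0.279 ± 0.0899 FPKM in cKO, 0.210 ± 0.109 in Flox, 0.0843 ± 0.00451 in OE and 0.122 ± 0.0840 in Ctrl. Ppard was the most abundant receptor, with 7.52 ± 0.728 FPKM in cKO, 10.9 ± 3.24 in Flox, 12.2 ± 0.888 in OE and 10.1 ± 5.75 in Ctrl. Pparg was at 1.26 ± 0.490, 2.27 ± 0.907, 2.59 ± 0.200 and 2.23 ± 1.47 FPKM in the same order.

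Levels in NCD-fed and HFD-fed mice are given side by side only, since diet, virus and table cannot be told apart. Plin2 was at a mean of 2.83 to 5.14 FPKM in the NCD groups and 6.44 to 6.74 FPKM in the HFD groups, with the order OE, Ctrl, Flox and cKO, in which only Flox and cKO did not overlap as neighbours. Ucp2 and Acot2 had the same order of means, and every pair of neighbours overlapped. Cpt1a and Hadh had the order OE, Flox, cKO and Ctrl, and Pdk4 and Acadm the order Flox, Ctrl, OE and cKO, again with overlap of all neighbours. Angptl4 had the order Ctrl, Flox, cKO and OE, and Acot1 the order Ctrl, OE, Flox and cKO, also with overlap of all neighbours.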

How the data were processed

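Total RNA of islets was sequenced on an Illumina NovaSeq instrument, and the authors deposited FPKM in separate tables for the NCD-fed and the HFD-fed mice. The labels name the mm10 build. The aligner, counting tool and annotation were not given in the sources used here. FPKM is not a count, so no count test was run, and relative depth (0.841 to 1.08) was taken from the steps between low values.

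Each table was tested on its own, 4 libraries against 4, with limma 3.58.1 in R 4.3.3 (variance trend, robust empirical Bayes, two-sided). Values were log2(FPKM + 0.5), and genes averaging under 0.5 FPKM in a table were left out. Calls were made at a Benjamini-Hochberg adjusted p below 0.05 over all genes tested. Fold changes of low genes are understated on this scale. Non-acinar scaling gave each library the same summed FPKM outside 24 acinar markers. No pair of libraries shared identical values.

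The 9 genes, the lists and the tests were chosen with earlier results of these data known. Pathway genes named were, per list, up to 3 in each direction with the smallest adjusted p below 0.05, or otherwise the 2 most abundant. Like genes were the 3 with the highest Pearson r, some of which are not reported here. Alternatives changed the pseudocount, the minimum, the scaling, the fit, the covariate and the libraries included.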

Additional observations from a re-analysis of the deposited data

Results flagged for a closer look

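Acot1 in Ctrl3 stood apart from the other Ctrl libraries. It was at 1.81 FPKM there, and the gap to the next library took 0.933 of the whole range of the 4 libraries on the log2(FPKM + 0.5) scale, above the limit of Dixon's test. Of the 36 groups tested (9 genes in 4 groups) this was 1, and chance alone is set to give about 1 in 20.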

How the results depend on the processing

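The direction of the 9 genes was kept in most settings, although the scaling of the libraries reversed some of them. The minimum level, the fit and a block for the replicate number cannot alter a log2 fold change. Agreement under these was fixed in advance. Leaving out 1 library keeps all the others, so those settings are not independent of the main one. The numbers of calls often changed between cKO and Flox, whereas between OE and Ctrl they were kept in most settings. Between cKO and Flox, where 1 of the 9 genes (Plin2), 120 genes in all higher and 1511 lower were called, the lower calls among the 9 were 0 with no minimum level, with median-of-ratios scaling, with non-acinar scaling, with the acinar covariate and without Flox20 and Flox21 together. They were 4 of 9 with the 3 libraries per group of the study's heat maps (Acadm, Hadh, Plin2 and Ucp2), where 63.5% of all genes were called lower. Calls over all genes were 0 higher and 0 lower with no minimum level and with the covariate, 316 and 7484 with the 3 libraries, and 2 and 1 without Flox20 and Flox21. Lower calls were 147 with median-of-ratios scaling, 33 with non-acinar scaling and 974 without variance trend and robust fitting. Leaving out 1 library gave 0 to 0 higher and 0 to 4 lower calls among the 9 (4 without Flox17). Over all genes it gave 2 (without cKO9) to 348 (without Flox16) higher calls. Lower calls over all genes ran from 17 (without cKO9) to 6759 (without Flox17, 57.2% of all genes). The log2 fold change of Plin2 then ranged from -0.90 to -0.56.

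Directions reversed between cKO and Flox with median-of-ratios scaling for Cpt1a (0.19), Ucp2 (0.16), Acadm (0.13) and Hadh (0.10), and with non-acinar scaling for the same genes (0.20, 0.16, 0.14 and 0.10). Ucp2 also reversed with the covariate (0.20) and without Flox20 and Flox21 (0.07).

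Between OE and Ctrl, where limma called 0 of the 9 genes, the covariate gave 3 higher and 1 lower, against 9.68% and 2.2% of all genes. The comparison without Ctrl2 and Ctrl3 gave 2 lower, against 21.9% of all genes. Over all genes, 4 higher and 0 lower calls became 13 higher with no minimum level, 3 lower with non-acinar scaling, 1174 and 267 with the covariate, and 301 and 2692 without Ctrl2 and Ctrl3. Leaving out 1 library gave 4 to 5 higher and 0 to 0 lower calls over all genes and 0 to 0 among the 9. Pdk4, Acot2, Plin2 and Acadm reversed with median-of-ratios scaling (-0.20, -0.07, -0.14 and -0.51) and with non-acinar scaling (-0.23, -0.10, -0.17 and -0.54). Without Ctrl2 and Ctrl3 they were at -0.59, -0.51, -0.57 and -0.31, and Ucp2 was at -0.31. Acadm was at -0.05 with the covariate. Leaving out 1 library gave -0.07 to 0.67 for Pdk4, -0.17 to 0.54 for Acot2, -0.07 to 0.69 for Plin2 and -0.11 to 0.14 for Acadm. The cause of these changes was not tested. Leaving out Flox20 and Flox21, or Ctrl2 and Ctrl3, was chosen after seeing the data.

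The labels do not say whether the replicate numbers pair the samples. Same-numbered libraries had correlations of their deviations from the group means between -0.21 and 0.12. Such values cannot settle whether the samples were paired. With the replicate number as a block, 2 of the 8 genes tested were lower in cKO (Pdk4 and Plin2), against 20.8% of all genes. In all, 289 genes were higher and 2455 lower in cKO, and 4 genes were higher and 0 lower in OE.

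Limits come from 4 libraries per group, from acinar shares that differ without overlap between cKO and Flox and range from 2.16% to 75.4% in Ctrl, and from FPKM without counts, so that no counting interval can be given for low genes such as Angptl4 and Acot1.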
